A study of Mus musculus with 8 samples.

Results

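Tapt1, Dpcd and Fbxo38 are 3 of the 25574 genes in the expression table of mouse oocytes whose RNA was split by sucrose gradient into a polysomal (P) and a non-polysomal (NP) dataset. They were selected on the FPKM values themselves, because for each of them every P library lay above every NP library, so the difference between P and NP is described here and not tested. An mRNA that carries several ribosomes sediments deep in the gradient, whereas free ribonucleoprotein particles, ribosomal subunits and single ribosomes stay higher up. The study could not settle whether heavy stored particles sedimented together with polysomes, so a level in P is not by itself a measure of translation. The fully grown oocyte has stopped transcription, and on resuming meiosis it recruits some stored maternal mRNAs to polysomes and releases others. A well known route of recruitment is cytoplasmic polyadenylation, in which the protein CPEB binds a U-rich cytoplasmic polyadenylation element (CPE) close to the poly(A) signal.

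TAPT1 is a multi-pass membrane protein found at the centrosome and the base of the primary cilium, and its loss disturbs cilium formation. DPCD is named after a gene deleted in a mouse model of primary ciliary dyskinesia, and it associates with the RUVBL1 and RUVBL2 ATPases of the R2TP chaperone complex. FBXO38 is an F-box protein, a substrate receptor of an SCF (SKP1, CUL1, F-box) ubiquitin ligase, known in T cells for marking the receptor PD-1 for degradation. Mouse oocytes have lost their centrioles by this stage, so the cilium genes are read here as maternal mRNAs and not as parts of a cilium.

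The oocytes came from CD1 mice of 8 weeks, collected 46 h after 5 IU of pregnant mare serum gonadotropin and held in prophase with 100 µM of the phosphodiesterase inhibitor IBMX. Both datasets share the rest of the handling. Denuded oocytes were cultured without IBMX, and those that underwent nuclear envelope breakdown (NEBD) were selected during this culture. At 180 min, some time after that selection, they were given the elongation inhibitor cycloheximide at 0.1 mg/ml for 10 min. Lysates of 200 oocytes were spun through 10–50% sucrose, 10 fractions were taken, and, with the topmost fraction left out, those of the non-polysomal and of the polysomal region were pooled, which gave 4 P and 4 NP libraries from biological replicates. Each library is thus a pool of oocytes, and fewer oocytes carrying an mRNA cannot be told apart from less of it in each. After removal of ribosomal RNA the cDNA was amplified by whole transcriptome amplification without molecular identifiers, so the intervals below cover counting error only.

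Values are FPKM, the fragments of a gene scaled to transcript length and library size, a scale per length on which levels of different genes can be set side by side. The steps between low values gave the number of fragments to which each library had been scaled, 1299377 to 7594637 in NP and 2677946 to 4699328 in P. The median FPKM of the 14292 genes tested, those with a mean above 0.1 in a dataset, was 3.41 to 5.55 in NP and 1.05 to 3.02 in P. All 12 oocyte markers were present, with summed FPKM of 6215 to 13034 in NP and 9076 to 36330 in P, and 11 of them were above 0 in every library. Of 10 granulosa and cumulus markers, 7 stayed below 1 FPKM in every library and 4 of these, Inhba, Foxl2, Has2 and Ptx3, were at 0 throughout; the list summed to 15.3 to 94.4 FPKM in NP and 2.10 to 64.0 in P, mostly from Cyp19a1 and Nr5a2. Of the 3 blood markers in the table, Hba-a1 and Ptprc were at 0 throughout and Cd68 had a mean of 11.1 FPKM in NP and 0 in P.

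The CPE was searched as TTTTAT or TTTTAAT, in 1 mRNA for each gene, and other forms were not searched. The mRNAs of Tapt1 and Dpcd carry such a CPE within the last 100 bases of their 3′UTR. That of Fbxo38 has no match to these sequences anywhere in its 3′UTR. The sites are shown with the start codons of the same mRNAs, in the RefSeq annotation of GRCm38.p6, each 5′ to 3′ on the gene's own strand. Capitals mark the CPE letters in the first pair and the ATG in the second. The Tapt1 sites lie on the minus strand at chr5:44175202-44175229 and chr5:44226590-44226606, and the Dpcd sites on the plus strand at chr19:45578259-45578286 and chr19:45560634-45560657. Both CPE windows are in the last exon's 3′UTR, and both start windows cross from the 5′UTR into the coding sequence.
Tapt1 CPE: ttcagtactaaTTTTATaagtgcatctt
Dpcd CPE: caacaattaaaTTTTATttttataaaaa
Tapt1 start: aacATGgcgggcgtctg
Dpcd start: cggagggaagATGgcggtgactag

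The Tapt1 CPE shown begins 60 bases from the end of the mRNA, ahead of an AATAAA poly(A) signal that begins 32 bases from the end. The Dpcd CPE begins 20 bases from the end and directly follows the poly(A) signal ATTAAA, which can be read in lower case ahead of the capitals. Each of these 3′UTRs holds 3 matches to TTTTAT or TTTTAAT on the mRNA strand, overlapping matches included. In Tapt1 the others begin 328 and 21 bases from the end, and in Dpcd 658 and 14 bases. Among 18017 mRNAs with a 3′UTR of at least 100 bases, 18.1% have one of these CPE sequences in that last window and 82.6% have AATAAA or ATTAAA there, the latter being present in Tapt1, Dpcd and Fbxo38 alike. Counted over the whole 3′UTR, a CPE sequence occurred in 34 of the 45 mRNAs matched among the genes with every P library above every NP library (75.6%) and in 58.9% of the 11414 mRNAs matched among the genes tested. These sets also differ in 3′UTR length, with medians of 1151 and 956.5 bases, and no test was made. All 3 mRNAs have A or G at position −3 and G at +4 around the start codon, a pair found in 39.6% of 21000 mRNAs. The annotated 5′UTR of Tapt1 is only 3 bases long, so its base at −3 is the first of the mRNA.

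The 3 transcripts are otherwise of unlike build. Tapt1 has 14 exons, an mRNA of 3492 bases and a coding sequence of 1695 bases for 564 residues. Dpcd is short, with 6 exons, 1385 bases and a coding sequence of 612 bases for 203 residues, at the 15.2 percentile of coding length. Fbxo38 is long, with 22 exons, 4521 bases and a coding sequence of 3588 bases for 1195 residues, at the 92.4 percentile. The number of ribosomes that fit on an mRNA grows with coding length, and on that measure the 3 span most of the range of mouse genes.

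Tapt1 (chr5:44175164-44226606, minus strand) was the most abundant of the 3 in the polysomal dataset. Its FPKM was 34.9, 64.9, 58.5 and 24.8 in NP replicates 1 to 4, and 72.4, 192, 158 and 291 in P replicates 1 to 4. P replicate 1 was the low library of its dataset, not far over the highest NP library, and P replicate 4 was the high one. The means were 45.8 ± 19.0 in NP and 178 ± 90.4 in P (SD, n = 4 each), a ratio of 3.90. On the log2(FPKM + 1) scale the difference was 1.87 with a standard error of 0.61, against a median difference of −0.39 over all genes tested. Standard errors of log2 differences are given throughout as moderated by limma towards the spread of all genes tested. They are not the replicate error of the gene alone. The lowest P value was 1.12 times the highest NP value, the narrowest margin of the 3. These values rested on 294 to 2717 fragments per library.

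Dpcd (chr19:45560615-45578279, plus strand) had the smallest ratio and the most even polysomal level. Its FPKM was 65.0, 73.8, 50.3 and 35.5 in NP replicates 1 to 4, and 126, 93.0, 120 and 135 in P replicates 1 to 4. P replicate 2 was the low polysomal library, and NP replicate 2 the high non-polysomal one. The means were 56.1 ± 16.8 and 118 ± 18.1 (SD, n = 4 each), a ratio of 2.11 and a log2 difference of 1.10 with a standard error of 0.53. The lowest P value was 1.26 times the highest NP value, and 129 to 796 fragments per library lay behind the values. The coefficient of variation across the 4 P libraries was 15.3%, where the median over 1705 genes with a mean of 50 to 500 FPKM in P was 68.7%, and it stood at the 0.821 percentile of those genes. The rule that chose Dpcd favours genes with little spread within a dataset, so these values are a description of it. In NP it was 29.97%, at the 10.2 percentile of 4632 genes with a mean of 10 to 100 FPKM, whose median was 58.8%.

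Fbxo38 (chr18:62504069-62548743, minus strand) was the least abundant of the 3 in both datasets and had the widest separation. Its FPKM was 12.1, 17.4, 35.6 and 22.1 in NP replicates 1 to 4, and 125, 56.9, 84.7 and 82.6 in P replicates 1 to 4. NP replicate 3 and P replicate 1 were the high libraries, and the lowest P library was still clear of all NP libraries. The means were 21.8 ± 10.1 and 87.3 ± 28.1 (SD, n = 4 each), a ratio of 4.01 and a log2 difference of 2.002 with a standard error of 0.60. The lowest P value was 1.601 times the highest NP value. Its smallest count was 99 fragments, in NP replicate 2, for which the exact 95% Poisson interval ran from 14.1 to 21.1 FPKM. Over all 24 values of the 3 genes the counting error was 1.92% to 10.1%, below the variation between replicates, which was 15.3% to 50.7%. Between the highest NP and the lowest P library, however, these intervals overlapped in Tapt1 and Dpcd. In Tapt1 they were 57.7 to 72.7 FPKM in NP replicate 2 and 68.4 to 76.7 in P replicate 1. In Dpcd they were 61.6 to 87.7 in NP replicate 2 and 84.1 to 102.6 in P replicate 2. In Fbxo38 they stayed apart, at 33.5 to 37.7 in NP replicate 3 and 53.1 to 61.0 in P replicate 2.

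**Figure D1:**
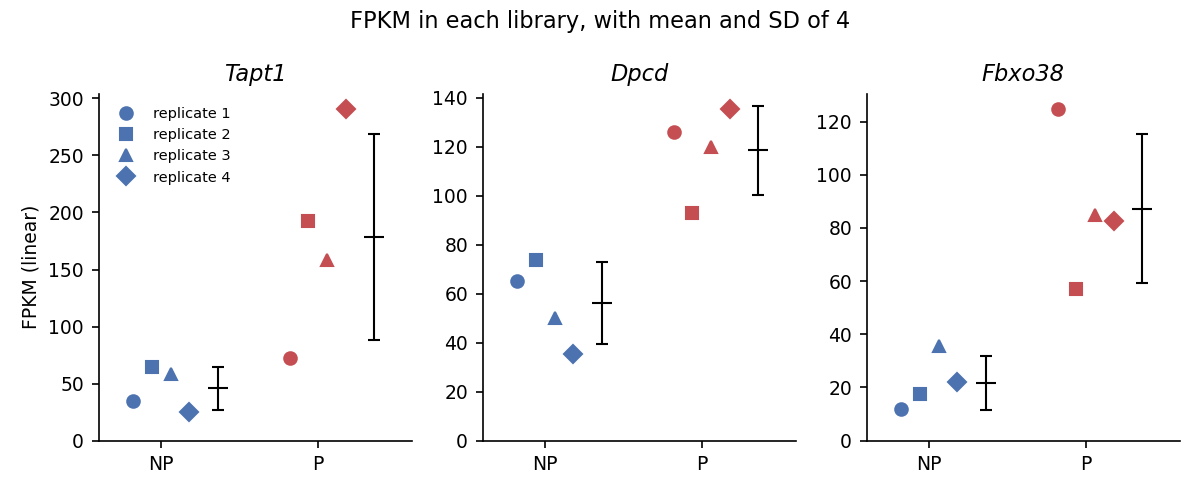
FPKM on a linear axis (y) of Tapt1, Dpcd and Fbxo38 in the NP and P libraries (x). Symbols give the replicate number, in blue for NP and red for P, and black bars the mean and SD of 4 libraries; the P points lie above the NP points in each panel, by the smallest margin in Tapt1 (72.4 against 64.9) and with the tightest P points in Dpcd (93.0 to 135).

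The ratio of mean FPKM compares relative levels in separately amplified pools, and it is not the share of an mRNA that sat on polysomes. It also depended on the scaling. When every library was brought to the same median FPKM, the ratios became 12.6 for Tapt1, 5.85 for Dpcd and 10.5 for Fbxo38, since the P libraries had the lower medians; under this scaling the median difference over all genes moved from −0.39 to 0.21. With quantile normalization the median difference was −0.04 and the ratios were 4.41, 2.48 and 4.79. P stayed above NP in all libraries for all 3 genes under both, with the lowest P value at 1.71, 2.61 and 4.95 times the highest NP value for Tapt1, Dpcd and Fbxo38 in the first and at 1.14, 1.71 and 2.09 times in the second. In the first this was fixed in advance for genes chosen by the rule. Every P library had a lower median than every NP library, so that scaling could only widen their separation.

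Within a library, position among the 14292 genes does not depend on such scaling. Tapt1 stood at the 77.7 to 88.7 percentile in NP and at the 89.9 to 97.2 percentile in P. Dpcd stood at 82.2 to 89.3 and 93.5 to 95.3. Fbxo38 stood at 66.1 to 82.3 and 89.9 to 93.9. All 3 were thus among the more abundant transcripts of both pools, and by mean level they ranked 525, 839 and 1143 in P and 2254, 1941 and 3840 in NP, in the order Tapt1, Dpcd and Fbxo38. The P libraries also held fewer genes above 0 FPKM, 9139 to 11339 against 11703 to 13753 in NP, and the part of this in the higher percentiles was not tested.

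**Figure D2:**
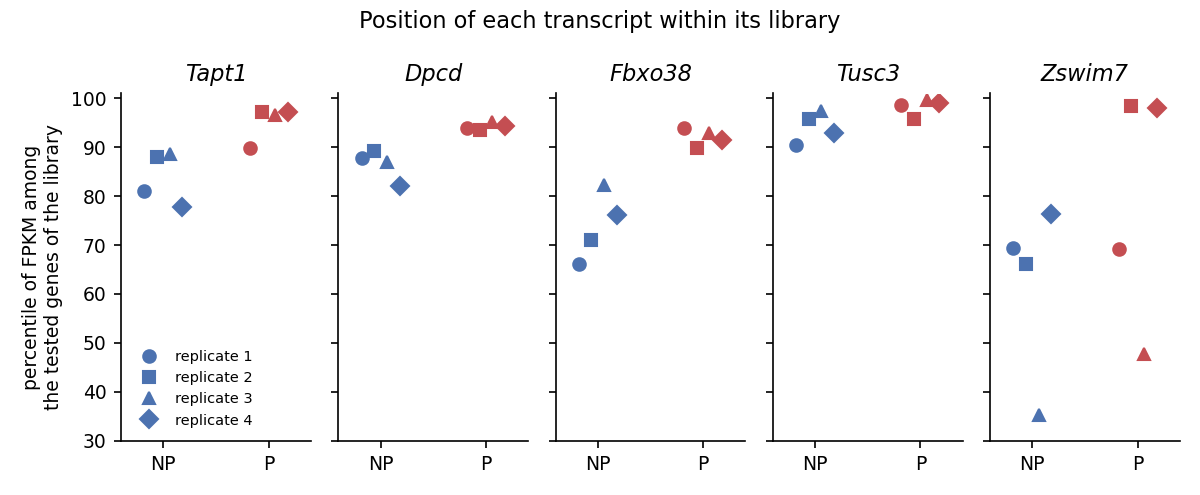
Percentile of FPKM among the 14292 genes tested in each library (y, cut at 30) for Tapt1, Dpcd, Fbxo38, Tusc3 and Zswim7 in NP and P (x), with symbols for the replicate number. The first 3 panels show P points above all NP points, up to 97.2 for Tapt1, whereas the points of Tusc3 overlap and those of Zswim7 are split.

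The order among the 3 genes was not the same in the pools. Dpcd exceeded Fbxo38 in 4 of 4 NP and 4 of 4 P libraries, although in P the ratio of the 2 levels was only 1.01 to 1.64, against 1.41 to 5.39 in NP. Tapt1 exceeded Dpcd in 1 of 4 NP libraries and in 3 of 4 P libraries. Tapt1 exceeded Fbxo38 in all NP libraries and in 3 of 4 P libraries, the exception being P replicate 1, where Fbxo38 was at its highest and Tapt1 at its lowest. By mean level the order was Dpcd, Tapt1 and Fbxo38 in NP and Tapt1, Dpcd and Fbxo38 in P, and the ranges of neighbours in each order overlapped.

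P and NP libraries that share a replicate number gave ratios of 2.07, 2.96, 2.70 and 11.7 for Tapt1, of 1.94, 1.26, 2.38 and 3.805 for Dpcd, and of 10.4, 3.28, 2.38 and 3.73 for Fbxo38. The high value came from number 4 in Tapt1 and from number 1 in Fbxo38, so no single library set the ratio of both. Leaving out 1 library at a time moved the ratio of means between 3.08 and 4.67 for Tapt1, 1.88 and 2.36 for Dpcd, and 3.43 and 5.08 for Fbxo38.

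How often the pattern that chose the 3 genes occurred depended on the scaling. In the deposited values every P library lay above every NP library in 51 genes (0.357% of those tested), and every NP library above every P library in 846 (5.92%). The 51 became 720 with every library at one median FPKM and 257 with quantile normalization. Since membership in the 51 was the rule, nothing is read from the count itself; with 1 library fewer it rose to 153 without NP replicate 3, 89 without NP replicate 4, 105 without P replicate 1, 145 without P replicate 2, 153 without P replicate 3 and 189 without P replicate 4. By mean level in P, Tapt1, Dpcd and Fbxo38 ranked 6, 9 and 13 of the 51, of which 20 had a mean above 50 FPKM in P. By the margin between the lowest P and the highest NP value, Fbxo38 ranked 6, Dpcd 16 and Tapt1 26 among the 43 with a mean above 10 FPKM in P. Among genes with a mean above 10 FPKM in P, just inside the rule stood Nlrp14, a maternal oocyte gene, with a lowest P value of 635 against a highest NP value of 629. Just outside stood Mphosph6, an exosome-associated RNA processing gene, with 345.8 against 346.2.

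Across all 14292 genes, limma on log2(FPKM + 1) called 0 genes higher in P (0%) and 3 lower in P (0.021%) at a Benjamini-Hochberg adjusted p below 0.1. The 3 were Tmem104 (log2 difference −5.82, adjusted p = 0.0529), Morc1 (−4.94, adjusted p = 0.0857) and AC132131.1 (−4.88, adjusted p = 0.0857). At an unadjusted p below 0.05 there were 68 higher (0.476%) and 1354 lower (9.47%). The number of calls changed when 1 library was left out. None remained without any one NP library or without P replicate 3. There were 5 without P replicate 1, 3 without P replicate 2 and 2 without P replicate 4, and the cause was not tested. Blocking on replicate number left 1 call. By the size of the log2 difference, Tapt1 stood at the 99.6 percentile of the genes tested, Dpcd at 96.7 and Fbxo38 at 99.7. The rule chose the 3 genes on these same values, so high percentiles follow from it and are only a description.

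Tusc3 and Zswim7, which the study names together with the 3 genes, did not share the separation in the deposited values. Tusc3, a subunit of the oligosaccharyltransferase complex, had 87.1, 191, 204 and 108 FPKM in NP and 486, 135, 724 and 723 in P. P replicate 2 fell among the NP libraries, and the other 3 P libraries stood above them. Its ratio was 3.50, with a log2 difference of 1.63, a standard error of 0.64 and an adjusted p of 0.440 in limma. With every library at one median FPKM, however, all P values of Tusc3 exceeded all its NP values, the lowest P value being 1.85 times the highest NP value, which was a wider margin than that of Tapt1. With quantile normalization the libraries of Tusc3 still overlapped, the lowest P value being 0.65 times the highest NP value. Zswim7, which codes for SWS1, a factor of homologous recombination, had 14.98, 12.6, 2.06 and 22.5 FPKM in NP and 13.1, 301, 1.23 and 398 in P. P replicates 2 and 4 were high, and replicates 1 and 3 lay within or below the NP range. Its ratio of 13.7 exceeded those of Tapt1, Dpcd and Fbxo38, yet the log2 difference of 1.98 had a standard error of 1.39 and an adjusted p of 0.637, and the values rested on 4 to 780 fragments.

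The genes next to Dpcd did not follow it. Dpcd overlaps the 3′ end of Fbxw4, another F-box gene, by 26 bases on the opposite strand, and Gm17018 by 3 bases on its own strand, and Poll, a DNA polymerase of base excision repair, begins 83 bases away on the opposite strand. Fbxw4 had 212, 176, 23.2 and 149 FPKM in NP and 65.2, 33.6, 71.7 and 16.0 in P. NP replicates 1, 2 and 4 stood above all P libraries and NP replicate 3 lay among the P values, and the ratio of means was 0.333 (log2 difference −1.40 ± 0.77 standard error, adjusted p = 0.542). Poll had a mean of 159 ± 151 in NP and 62.4 ± 44.2 in P (SD, n = 4 each), a ratio of 0.392 (adjusted p = 0.610), and Gm17018 had 208 ± 121 and 161 ± 114, a ratio of 0.778 (adjusted p = 0.825). The sources used here do not say whether reads were counted by strand, so reads of the overlapping stretch cannot be assigned to one gene. Fgf8, the next gene in the other direction at 158518 bases, had a mean of 672 FPKM in NP and 526 in P.

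**Figure D3:**
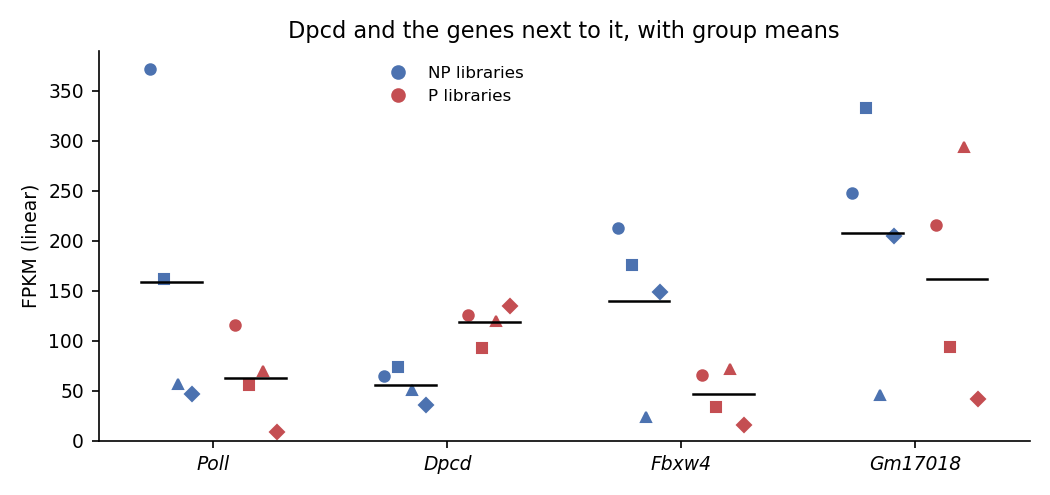
FPKM on a linear axis (y) of Poll, Dpcd, Fbxw4 and Gm17018 (x) in the NP (blue) and P (red) libraries. Circles, squares, triangles and diamonds are replicates 1 to 4 and black lines the group means; only in Dpcd among these 4 genes do all P points lie above all NP points, with means of 118 and 56.1.

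The genes next to Tapt1 and Fbxo38 were at or near 0. The genes on either side of Tapt1, Gm16401 at 72650 bases and Ldb2 at 245526 bases, were at 0 in every library. On either side of Fbxo38, Htr4 lies 36266 bases away with a mean of 0.275 FPKM in NP and 0 in P, and Spink10 lies 167 bases away with 0 in NP and a mean of 0.678 in P.

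The other genes of each pathway were looked at by lists that leave out the 3 genes themselves. In none of the 4 lists did a gene pass the adjusted threshold in either direction, and in none did every P library lie above every NP library (background 0.357%). The centrosome and cilium list around Tapt1 held 53 genes of the basal body and early ciliogenesis, of which 51 were tested. None was at an unadjusted p below 0.05 in the direction of P and 4 were in the direction of NP, against 0.476% and 9.47% of all genes. The median log2 difference was −0.56, beside −0.39 for all genes. Its most abundant members in P were Ift43, an intraflagellar transport subunit (140 FPKM in NP and 257 in P, adjusted p = 0.667), the GTPase Arl3 (156 and 212, adjusted p = 0.876) and the BBSome subunit Bbs4 (208 and 177, adjusted p = 0.693).

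All NP values exceeded all P values in 3 of these 51 genes, where 5.92% of all genes did so. They were Bbs9, another BBSome subunit (408 ± 415 FPKM in NP and 55.2 ± 43.1 in P, SD, n = 4 each), Odf2, a component of centriolar appendages (15.6 ± 5.00 and 4.20 ± 3.22), and Kif3a, a motor of anterograde transport (11.96 ± 3.91 and 2.75 ± 2.503). Their log2 differences were −2.63, −1.93 and −2.05, with adjusted p of 0.376, 0.479 and 0.474. The fourth gene at an unadjusted p below 0.05 was Kif3b, the partner of Kif3a, at −2.43 (adjusted p = 0.425), named here after its value was seen. Suco, which codes for a membrane protein related to the yeast partner of the Tapt1 homologue, had 11.8 and 15.2 FPKM (log2 difference 0.46, adjusted p = 0.805) and is likewise named by choice.

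The list around Dpcd held 22 genes of R2TP, its prefoldin-like partners and the assembly of axonemal dynein, of which 19 were tested. The median log2 difference was −0.36. Of the ATPases that DPCD associates with, RUVBL2 had an mRNA level of 202 FPKM in NP and 150 in P (Ruvbl2, log2 difference −0.38 ± 0.60 standard error, adjusted p = 0.794). The mRNA of the other, Ruvbl1, had 22.6 and 8.50 (−0.81 ± 1.19, adjusted p = 0.778) and is named by choice. Polr2e, an RNA polymerase subunit that sits in the same complex, had 124 and 202 FPKM (adjusted p = 0.712), and Pdrg1, of the prefoldin-like module, had 69.9 and 140 (adjusted p = 0.947). The P libraries of Pdrg1 ran from 5.06 to 354 FPKM, whereas those of Dpcd, chosen by a rule that favours little spread, kept to 93.0 to 135. Of the 19, only the dynein assembly factor Zmynd10 was at an unadjusted p below 0.05, in the direction of NP, where 9.47% of all genes were (37.2 and 12.3 FPKM, adjusted p = 0.5002).

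For Fbxo38 the partners and the family were listed apart. The SCF core and its neddylation enzymes, 11 genes all tested, had a median log2 difference of 0.37, and 10 of the 11 lay above the median of all genes; with libraries at one median the list stood at 1.64 beside 0.21, with 9 of the 11 above, and with quantile normalization at 0.81 beside −0.04. Libraries at one median also put the R2TP list at 0.72 and the F-box only family at 0.59, and the centrosome and cilium list at 0.15. None of the 11 SCF and neddylation genes was at an unadjusted p below 0.05. The adaptor Skp1a had 1376 FPKM in NP and 1817 in P (adjusted p = 0.837), the ubiquitin-conjugating enzyme Cdc34 1148 and 673 (adjusted p = 0.593), and the RING subunit Rbx1 288 and 263 (adjusted p = 0.940). The scaffold Cul1 had 105 ± 61.9 and 228 ± 101.2 FPKM (log2 difference 1.17 ± 0.60 standard error, adjusted p = 0.528), and its modifier Nedd8 28.7 ± 16.8 and 71.8 ± 42.8 (1.34 ± 0.66, adjusted p = 0.522), both named by choice as the largest differences of the list in the direction of P.

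Of 36 other genes of the F-box only family, 32 were tested, with a median log2 difference of −0.37. The highest difference among them was 0.51, in Fbxo11 (10.9 and 16.1 FPKM, adjusted p = 0.835), beside 2.002 in Fbxo38, which was chosen on this contrast. The most abundant in P were Fbxo34 (172 and 154 FPKM, adjusted p = 0.796), Fbxo18, a DNA helicase with an F-box (120 and 133, adjusted p = 0.960), and Fbxo8 (100.6 and 123, adjusted p = 0.900). All 3 of these were more abundant in both pools than Fbxo38 without a separation of the libraries. In Fbxo31, known for the degradation of cyclin D1, all NP values exceeded all P values (16.6 ± 4.20 and 5.51 ± 3.21 FPKM, SD, n = 4 each; log2 difference −1.58, adjusted p = 0.514). This was 1 of the 32 genes tested, where 5.92% of all genes did so.

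**Figure D4:**
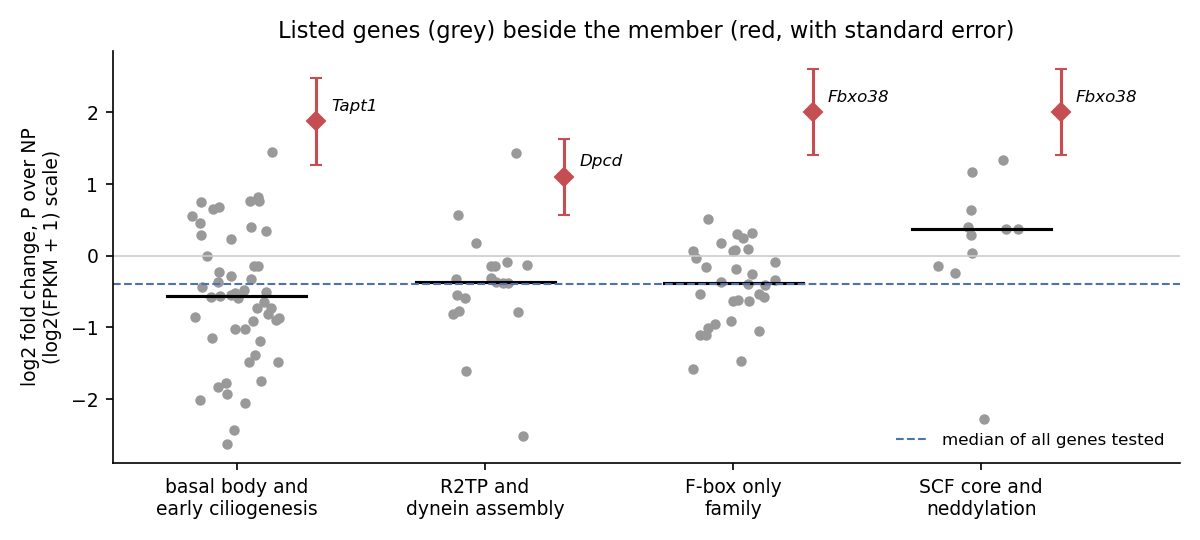
Log2 fold change of P over NP on the log2(FPKM + 1) scale (y) for the genes of 4 lists (x). Grey points are listed genes, black lines list medians, red diamonds Tapt1, Dpcd and Fbxo38 with their standard errors, and the dashed line the median of all genes tested (−0.39); no grey point reaches Tapt1 (1.87) or Fbxo38 (2.002), and 1 grey point of the R2TP list, Ccdc103 at 1.44, lies above Dpcd (1.10). The red genes were chosen on this difference and the grey ones were not, so nothing is read from the contrast.

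The genes with profiles most like each of the 3 were found among 6415 genes with a mean above 10 FPKM in a dataset, by the root mean square difference of log2(FPKM + 1) over the 8 libraries after centring each gene. For Tapt1 they were Nol9, a polynucleotide kinase of ribosomal RNA processing (0.42), Ss18, a subunit of the BAF chromatin remodeller (0.44), and Tet3, the maternal 5-methylcytosine dioxygenase (0.52), where the median of the pool was 1.82. For Dpcd they were the polarity gene Llgl1 (0.27), Mn1 (0.31) and the receptor gene Neo1 (0.32), with a pool median of 1.46. For Fbxo38 they were Prc1, a microtubule bundler of the spindle midzone (0.41), the dynein regulator Pafah1b1 (0.46) and the nuclear envelope gene Syne2 (0.47), with a pool median of 1.78. Of these 9 genes Nol9, Mn1, Neo1, Pafah1b1 and Syne2 also had every P library above every NP library (0.357% of all genes tested), which the search favours, since it looked for profiles like those of genes chosen for this separation.

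The 3 genes were less like each other than like these. Dpcd was the gene of rank 24 and Fbxo38 of rank 96 in likeness to Tapt1, at 0.72 and 0.87. Seen from Fbxo38, Dpcd ranked 59 and Tapt1 138, and seen from Dpcd, whose profile is shallow, Tapt1 ranked 282 and Fbxo38 365. The P libraries that were high differed among them, with replicate 4 in Tapt1, replicate 1 in Fbxo38 and nearly level values in Dpcd.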

How the data were processed

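RNA-seq of 4 P and 4 NP libraries was analysed, with groups and replicate numbers taken from the titles. The authors used Trim Galore 0.4.1 for trimming, FastQC 0.11.5 for quality checks, HISAT2 2.0.5 for mapping to GRCm38 and Seqmonk for quantification; the deposited values are FPKM per gene and library, not log-transformed. Columns of the authors' own comparisons (group means, P/NP ratios, and DESeq2 fold changes and p-values) were not used. Since FPKM values are not counts, P and NP were compared by limma 3.58.1 (R 4.3.3, lmFit and eBayes with trend, two-sided, Benjamini-Hochberg adjusted p below 0.1) on log2(FPKM + 1), for the 14292 genes with a mean above 0.1 FPKM in a dataset, and the script was tested on simulated data. A log2 difference on this scale understates the change of low genes. The standard errors are the moderated ones of this fit and depend on the genes included. With no filter on low values they were 0.50 for Tapt1, 0.27 for Dpcd and 0.38 for Fbxo38. Fragments were recovered from the FPKM steps, whole within 0.02 for the 3 genes in all 8 libraries.

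The 3 genes and the gene lists were chosen with earlier results of these data known. Named besides were Tusc3 and Zswim7, the 3 listed genes highest in P and those without overlap between datasets, neighbouring genes, and the 3 genes of most similar profile. Listed genes were matched by current or older symbol. For each gene the RefSeq mRNA with the longest coding sequence was read from GRCm38.p6, 1 for each of 21000 genes.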

Additional observations from a re-analysis of the deposited data

Results flagged for a closer look

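In 8 of 70 groups of 4 libraries, over 38 named genes, 1 library stood far from the other 3, its gap to the nearest being over Dixon's 95% limit as a part of the group's range (a limit that chance passes in about 1 in 20 groups). No value of Tapt1, Dpcd or Fbxo38 was among them. In replicate 4, Skp1a reached 3338 FPKM in NP (570 to 902 in the others), Rbx1 reached 725 in NP (98.9 to 167) and 666 in P (90.0 to 160), and Arl3 reached 642 in P (40.5 to 92.6). In replicate 3, Bbs9 reached 120 FPKM in P (30.5 to 35.9), Htr4 reached 1.03 in NP (at most 0.0673) and Fbxo31 was low in NP at 10.4 (18.1 to 19.4). Spink10 was at 2.71 FPKM in P replicate 1 and at 0 in the other 3 P libraries.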

How the results depend on the processing

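For Tapt1, Dpcd and Fbxo38 the P/NP ratio moved by less than the spread between replicates under 13 of 14 alternatives each, the exception being libraries scaled to one median FPKM (12.6, 5.85 and 10.5). That spread was the SD of the ratio, propagated from both datasets. Leaving out 1 of 4 libraries moves a mean by less than its SD, so those alternatives could not fail. The count of 13 therefore says little of stability. Leaving out 1 library gave 3.08 to 4.67, 1.88 to 2.36 and 3.43 to 5.08. The 51 genes with every P library above every NP library became 720 with libraries scaled to one median and 257 with quantile normalization, and 70 to 189 with 1 library left out, which loosens the criterion by construction. The 3 genes called by limma became 5 with a pseudocount of 0.1, 1 without a filter on low values, 5 with a filter of mean FPKM above 1, 0 with libraries scaled to one median, 0 with quantile normalization, and 0 to 5 with 1 library left out; the cause was not tested. The 4 lists had 0 calls under the 14 alternatives, which says little of their stability where so few genes are called at all.

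With the replicate number as a block, limma called 1 gene. The block left the log2 differences of Tapt1, Dpcd and Fbxo38 at 1.87, 1.10 and 2.002, as it must with each number once in each dataset. Their ratios of 3.73, 2.17 and 4.17 under this alternative are geometric means, which the pairing cannot change. Deviations of libraries with the same number correlated at 0.139, 0.0518, 0.251 and 0.155 over 11374 genes, against −0.135 to 0.136 for other numbers, and NP replicate 2 correlated best with P replicate 1; whether equal numbers mean one gradient is not stated, and the fit without the block was kept as the first choice. Counting error of the 3 genes stayed below the variation between replicates, but amplified fragments are not independent molecules, so how far the input RNA limits their values was not tested. Genes of few fragments such as Zswim7 are measured less precisely.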
